A study of Mus musculus with 13 samples.

Results

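The 2 postnatal stages of muscle proprioceptors, postnatal day 12 (P12) and adult, were compared through every neuron that the authors' deposited annotation placed on a plate of either stage. These were 154 P12 neurons on 4 plates and 208 adult neurons on 5 plates, 362 of the 586 neurons annotated over the 13 plates of the series. All 9 plates came from mice of the genotype PV:Cre+/-;Rx3:Flp+/-;Ai65+/-, in which Cre is made where *Pvalb* is expressed, Flp where *Runx3* is expressed, and the reporter tdTomato only in cells that have had both. The adults were older than postnatal day 56, 6 animals were used for the adult plates and 4 for the P12 plates, and both stages took animals of either sex. Ganglia were digested for 16 min in each enzyme step in the adult and for 12 min at P12, so that digestion time and stage cannot be told apart. Single tdTomato neurons were sorted into the 96 wells of a plate and sequenced by Plate-seq, which tags each transcript with a unique molecular identifier (UMI). The 4 P12 plates are called P12 replicates 1 to 4 and the 5 adult plates adult replicates 1 to 5. The labels do not tie plates to animals, so that plates may share animals and the p-values measure the spread between plates.

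Proprioceptors are the dorsal root ganglion neurons that report muscle length and force. Their peripheral axons end on muscle spindles (group Ia and group II afferents) or Golgi tendon organs (group Ib afferents), and their central axons enter the spinal cord, where group Ia afferents contact motor neurons directly. In the second postnatal week their endings are in place while limb reflexes and gait still mature. Growing axons are rich in tubulins, actin regulators and membrane proteins of the growth cone, and maturing neurons replace part of these with neurofilaments, ion channels of fast firing and release machinery.

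The plates of each stage fell into 2 sets. P12 replicates 1 and 2 held 12 and 13 annotated neurons with 65165 and 52324 UMIs on average, and P12 replicates 3 and 4 held 67 and 62 neurons with 28433 and 21753 UMIs. None of the authors' 5 P12 clusters was found on both P12 sets: 2 of them lay on replicates 1 and 2 and the other 3 on replicates 3 and 4. The adult plates held between 20 and 53 neurons with mean depths of 33828 to 59682 UMIs, and 2 of their 5 numbered clusters were found on replicates 1 and 2 alone. The annotation marked 42 of the 208 adult neurons as excluded from the adult clusters, on all 5 plates, and none of the 154 P12 neurons. The paper describes adult cells outside its 5 clusters as of non-proprioceptor classes or of small clusters, so that some of the 42 may be other neurons. On adult replicate 5 they were 7 of 20 neurons. All 208 were used, and with the numbered clusters as the only adult neurons 1170 genes were called between the stages in place of 1149. Shares of neurons with a UMI were not taken without the 42. UMIs per neuron did not pass a two-sided exact permutation test between the stages (41919 ± 20307 at P12 and 45005 ± 11463 in the adult, SD over 4 and 5 plates, p = 0.778, with 0.0159 the smallest p that 4 against 5 plates allow). With each neuron thinned to 7000 UMIs, the genes detected per neuron were 2748 ± 124 at P12 and 2799 ± 56 in the adult (exact permutation p = 0.381), and without thinning 6466 ± 1599 and 6722 ± 668 (exact permutation p = 0.73). The wells of all plates carried the same barcodes, and 90 barcodes of annotated neurons recurred between the 9 plates.

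**Figure D1:**
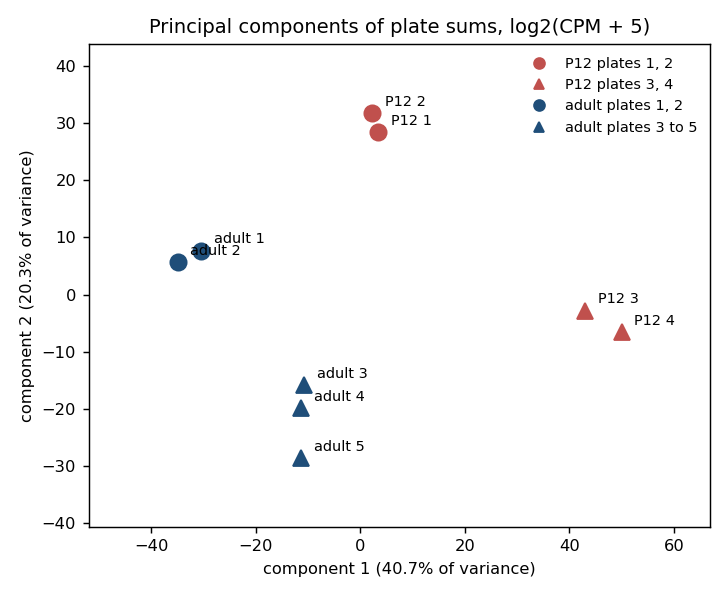
The first 2 principal components of log2(CPM + 5) over the 10145 tested genes, 1 point per plate, with circles for replicates 1 and 2 and triangles for the other replicates of each stage. The 5 adult plates lie left of the 4 P12 plates on component 1 (40.7% of the variance), and each stage forms 2 groups of plates.

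Of the transcripts that define proprioceptors, some were found in most neurons of every plate, the excluded adult neurons counted in, and others in fewer. *Pvalb* had a UMI in at least 95% of the thinned neurons on every plate, *Ntrk3*, the receptor of neurotrophin 3, in at least 85%, and the ETS factor *Etv1* in at least 83.7%. *Runx3* had a UMI in 8.2% to 25% of the thinned neurons on the P12 plates and 17.5% to 30.8% on the adult plates, at 16.6 to 39.5 CPM at P12 and 26.3 to 58.7 CPM in the adult. The stereocilia scaffold *Whrn* had a UMI in 15.4% to 41.7% of the thinned neurons on the P12 plates and 34.6% to 55.8% on the adult plates, at 46 to 69.4 CPM at P12 and 89.4 to 115 CPM in the adult. Of 21 markers of nociceptors, fibroblasts, vessels, blood and immune cells, 8 had no UMI in any thinned neuron and the median share was 0.21% of neurons, with 15% the highest on any plate. Summed over the satellite glia and Schwann cell list, the level was 2985 to 3275 CPM at P12 and 3948 to 5069 CPM in the adult, most of it *S100b* (2478 to 2742 CPM at P12 and 3576 to 4159 CPM in the adult). Without *S100b* the other 17 glial genes summed to 243 to 685 CPM and 372 to 954 CPM, overlapping between the stages. On P12 replicates 1 to 4 this sum was 685, 566, 243 and 328 CPM. *Apoe* had a UMI in 83.3%, 76.9%, 13.6% and 14.8% of the thinned neurons on these plates, so that replicates 1 and 2 were higher in both. Of the 9 glial genes tested only the myelin gene *Mbp* was called, and it was lower in the adult (log2 fold change -1.27 ± 0.36 (SE), adjusted p = 0.0443).

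To find the genes that differed between the stages, the UMIs of all annotated neurons of a plate were summed, and the 4 P12 sums were compared with the 5 adult sums by edgeR's quasi-likelihood test. A gene was called at a Benjamini-Hochberg adjusted p under 0.05, and fold changes are adult minus P12 on the log2 scale with the standard error (SE) of the fit. Of 10145 genes tested, 1149 (11.3%) were called, 561 higher in the adult (5.53%) and 588 lower (5.8%). The levels quoted for single plates are CPM, in which a gene's UMIs are scaled to the same total in every neuron before the mean of the plate is taken. Plates of the 2 stages did not overlap in CPM for 12.2% of the tested genes. In a sum over neurons, fewer neurons with a transcript and less of it in each neuron cannot be told apart.

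This count depended on which plate sets entered. Between the adult sets 15.3% of 11341 genes were called, and between the P12 sets 17.4%, in a fit with the 4 sets as separate groups. Between the stages 2579 of 11075 genes were called without P12 replicates 1 and 2 (1223 higher and 1356 lower in the adult). Without P12 replicates 3 and 4, 306 of 10928 were called (146 higher and 160 lower). The number of calls over all genes thus moved with the setting, and the counts of list members below are to be read beside it. The number of genes called was 728 of 9318 without adult replicates 1 and 2 (351 higher and 377 lower). It was 1165 of 10552 with those as the only adult plates (695 higher and 470 lower). With each neuron thinned to 7000 UMIs it was 434 of 4560 (211 higher and 223 lower). The fit of the 4 sets was therefore used to mark the genes that were called with the same sign in each of its 4 comparisons between a P12 set and an adult set. They numbered 378 (3.33% of those tested), 201 higher (1.77%) and 177 lower (1.56%) in the adult, and are referred to as called in all 4 comparisons. Their number was 55 of 5647 with each neuron thinned to 7000 UMIs, and between 170 and 451 on leaving out 1 plate. Of the 1149 genes called between the stages, 371 were among them, and 890 were called neither between the adult sets nor between the P12 sets. The 4 comparisons share plates and are not independent of each other. The spread in this fit is that between plates within a set. The paper states that the adult neurons came from different experiments, and the plates of a set may share an experiment. Of the genes described here, the call between the stages was lost in 10 or more of the 19 or 20 alternatives for *Atp5c1*, *Cartpt*, *Hsp90aa1*, *Kcna6*, *Kcnb2*, *Kcns1*, *Mbp*, *Msmo1*, *Mvk*, *Ncam1*, *Ndn*, *Ndufs4*, *Pdha1*, *Piezo2*, *Ret*, *Rpl32*, *Stmn2* and *Whrn*.

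Genes of axon growth were lower in the adult in many cases. Of 26 tested members of 31, 14 fell and 0 rose, with a median log2 fold change of -0.80 beside -0.00392 over all tested genes, and 11 of the 14 were called in all 4 comparisons. In the 4 reduced comparisons of plate sets the falls numbered between 10 and 14, and with each neuron thinned to 7000 UMIs 7 of 20 tested members fell and 0 rose. With adult replicates 1 and 2 as the only adult plates 1 member passed in the other direction. The 14 were *Gap43*, *Marcksl1*, *Basp1*, *Nrep*, *Dpysl3*, *Dpysl4*, *Dpysl5*, *Crmp1*, *Stmn2*, *Tubb2a*, *Tubb5*, *Tuba1a*, *Tmsb10* and *Ncam1*, and all but *Tubb5*, *Dpysl4* and *Ncam1* were called in all 4.

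*Gap43* (GRCm38 chr16:42248442-42340651), which encodes the growth cone protein GAP-43, measured 62.6, 23.8, 44.4 and 41.9 CPM at P12 and 5.16, 4.4, 1.9, 3.19 and 10.2 CPM in the adult. Every P12 plate lay above every adult plate (log2 fold change -3.17 ± 0.39 (SE), adjusted p = 0.00103). *Basp1* (chr15:25363277-25413764), a membrane protein related to GAP-43 in its regulation of the actin cortex, measured 69.9, 85.4, 65.6 and 55.4 CPM at P12 and 0.473, 3.49, 7.51, 8.78 and 1.68 CPM in the adult. The lowest P12 plate was several times above the highest adult plate (log2 fold change -3.41 ± 0.51 (SE), adjusted p = 0.00228). *Marcksl1* (chr4:129513581-129515985), a MARCKS-family actin regulator, measured 55.2, 37.8, 54 and 74.8 CPM at P12 and 0.333, 1.0, 0, 0 and 0 CPM in the adult. The 5 adult plates held 3 UMIs of it in 9258366 and the 4 P12 plates 224 in 4715907, a ratio of 147 (49.5 to 716) with its exact 95% interval, which covers counting error only. The same held for *Fscn1* (chr5:142960343-142973185), which bundles actin in filopodia and was not on the list. It measured 25.5, 32.9, 24.2 and 32.1 CPM at P12 and 0, 0.272, 0.311, 0.322 and 0 CPM in the adult, 3 adult UMIs against 124, a ratio of 81.1 (27.1 to 399). Adjusted p was 4.28e-05 for *Marcksl1* and 1.53e-05 for *Fscn1*.

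The cytoskeletal genes of highest level fell by less. *Tmsb10*, an actin monomer binder, measured 3605, 4803, 3092 and 3710 CPM at P12 and 1600, 1499, 944, 1074 and 1177 CPM in the adult (log2 fold change -1.90 ± 0.16 (SE), adjusted p = 7.28e-05). *Tubb2a*, a beta tubulin, measured 1140, 986, 871 and 815 CPM at P12 and 312, 323, 334, 319.7 and 404 CPM in the adult (log2 fold change -1.61 ± 0.14 (SE), adjusted p = 7.28e-05). *Tuba1a*, the alpha tubulin of postmitotic neurons, measured 3620, 3135, 2788 and 2814 CPM at P12 and 1858, 1952, 1817, 1864 and 1890 CPM in the adult (log2 fold change -0.78 ± 0.13 (SE), adjusted p = 0.00424). In each of the 3 the P12 and adult plates did not overlap. The collapsin response mediators *Crmp1*, *Dpysl3*, *Dpysl4* and *Dpysl5*, which couple guidance signals to microtubules, had log2 fold changes of -1.31, -0.80, -2.08 and -0.84, and *Dpysl4* was low throughout (5.84 to 16.2 CPM at P12 and 1.35 to 4.56 CPM in the adult). *Nrep* fell by 2.04 and *Ncam1*, the neural cell adhesion molecule, by 0.94 on the log2 scale, while *Stmn2*, a microtubule destabilizer of growth cones, fell by 0.48 (adjusted p = 0.0466). *Stmn2* lost the call in 16 of 20 alternatives, among them each that left out 1 plate. Members of this list at the highest levels were not all lower: *Map1b* stood at 4672 to 7593 CPM at P12 and 6213 to 11206 CPM in the adult (adjusted p = 0.218) and *Tmsb4x* at 2877 to 3721 CPM at P12 and 1326 to 3278 CPM in the adult (adjusted p = 0.168). Tubulin genes have close paralogs, so that reads shared between copies can move counts from one to another.

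**Figure D2:**
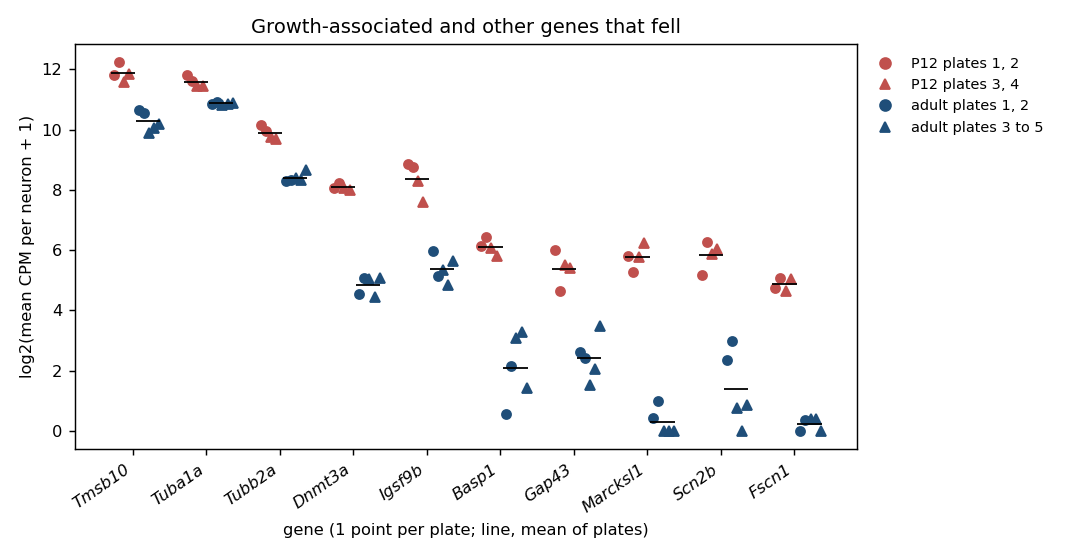
Levels of 10 genes that were lower in the adult, as log2 of the plate's mean CPM plus 1, with 1 point per plate and a line at the mean of these log values. In all 10 the 4 P12 plates lie above the 5 adult plates, with *Marcksl1* and *Fscn1* at or near 0 in the adult.

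The intermediate filament genes divided by subunit. *Prph* and *Ina*, encoding peripherin and alpha-internexin, the filament proteins that precede the neurofilament triplet, fell in the adult and in all 4 comparisons. *Prph* measured 1464, 1161, 1061 and 1057 CPM at P12 and 839, 748, 733, 829 and 989 CPM in the adult (log2 fold change -0.63 ± 0.15 (SE), adjusted p = 0.0229). *Ina* measured 477, 439, 424 and 399 CPM at P12 and 251, 225, 201, 149 and 224 CPM in the adult (log2 fold change -1.48 ± 0.17 (SE), adjusted p = 6.18e-04). The triplet itself was not called (adjusted p = 0.713, 0.294 and 0.159 for *Nefl*, *Nefm* and *Nefh*). *Nefl* stood at 2909 to 8737 CPM at P12 and 4035 to 5552 CPM in the adult, and *Nefm* at 4634 to 9525 CPM at P12 and 4551 to 7133 CPM in the adult. *Nefh*, the heavy subunit of large myelinated axons, stood at 1836 to 3945 CPM at P12 and 3087 to 4764 CPM in the adult. P12 replicates 1 and 2 had the higher levels of all 3 among the P12 plates, and without them 2 higher and 2 lower of the 6 filament genes were called. At the node of Ranvier, 1 of 13 tested genes rose, *Nfasc*, the neurofascin that holds sodium channel clusters, at 155, 161, 142 and 98.8 CPM at P12 and 211, 232, 223, 228 and 212 CPM in the adult (log2 fold change 0.63 ± 0.14 (SE), adjusted p = 0.0154). *Cntnap2*, an adhesion protein of the juxtaparanode, did not pass (522 to 615 CPM at P12 and 415 to 514 CPM in the adult, adjusted p = 0.051).

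The 15 largest falls were taken among genes whose plates did not overlap between the stages. Of these 15, 3 were members of the growth list (*Marcksl1*, *Basp1* and *Gap43*), and *Dnmt3a* (chr12:3806007-3914443) had the smallest adjusted p. It encodes a de novo DNA methyltransferase and measured 267, 299, 268 and 253 CPM at P12 and 22.3, 32.8, 31.7, 20.8 and 32.7 CPM in the adult. All P12 plates were several times above all adult plates (log2 fold change -3.51 ± 0.18 (SE), adjusted p = 1.99e-06), and it was called in all 4 comparisons. After thinning, 76.9% to 91.7% of P12 neurons and 7.5% to 20% of adult neurons on a plate had a UMI of it. *Igsf9b* (chr9:27299204-27357546), a synaptic adhesion protein, measured 467, 432, 309 and 191 CPM at P12 and 61.2, 34.3, 40, 27.7 and 48.7 CPM in the adult (log2 fold change -3.23 ± 0.25 (SE), adjusted p = 4.47e-05). *Fam184b* (chr5:45529705-45639614) measured 91.9, 89.4, 85.1 and 84.4 CPM at P12 and 15, 16.2, 17.3, 15.2 and 20 CPM in the adult (log2 fold change -2.66 ± 0.16 (SE), adjusted p = 9.17e-06). The annotation places lncRNAs on the other strand within *Fam184b* and *Dnmt3aos* within *Dnmt3a*, and whether the counting used strand is not given in the sources used here.

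The remaining large falls were in genes of lower level. *Ramp1* (chr1:91179822-91225196), a receptor subunit for calcitonin gene-related peptide, stood at 12.7 to 37.6 CPM at P12 and 0.324 to 3.17 CPM in the adult (log2 fold change -4.23 ± 0.51 (SE), adjusted p = 8.57e-04). *Cdkn1a* (chr17:29090976-29100727), the cell cycle inhibitor p21, stood at 19.4 to 55.9 CPM at P12 and 1.66 to 5.58 CPM in the adult (log2 fold change -3.41 ± 0.44 (SE), adjusted p = 0.0013). The GPI-anchored *Ly6e* stood at 39.2 to 67.1 CPM at P12 and 3.24 to 8.07 CPM in the adult (log2 fold change -3.48 ± 0.32 (SE), adjusted p = 1.13e-04). The neighbouring genes *Tmem176a* and *Tmem176b* on chromosome 6, which overlap at their starts on opposite strands, had log2 fold changes of -3.17 ± 0.61 and -3.91 ± 0.57. *Tmem176a* stood at 27.6 to 53.1 CPM at P12 and 0.428 to 16.5 CPM in the adult, and *Tmem176b* at 78.5 to 149 CPM at P12 and 0.815 to 27.3 CPM in the adult. *Mlf1* (-3.07) and the dynein light chain *Dynlt1a* (-2.63) completed the set, and the end of *Dynlt1a* overlaps *Tmem181a* on the other strand. All of these but *Tmem176a* were called in all 4 comparisons.

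Of the sodium channel genes, 3 of 11 tested fell and 0 rose (median log2 fold change -0.14). The counts were 5 lower and 2 higher of 13 without P12 replicates 1 and 2, and without P12 replicates 3 and 4, 1 lower and 0 higher of 11. With thinned neurons 1 of 8 was lower and the median was 0.05. *Scn2b* (chr9:45117782-45130070), the beta 2 subunit, measured 34.8, 75.5, 57.7 and 65.4 CPM at P12 and 4.08, 6.94, 0.704, 0 and 0.809 CPM in the adult, 9 UMIs in the adult against 217 at P12, a ratio of 47.3 (24.5 to 105). *Fgf13*, an intracellular partner of sodium channels, measured 207, 232, 197 and 190.4 CPM at P12 and 155, 131, 115, 115 and 105 CPM in the adult (log2 fold change -0.78 ± 0.14 (SE), adjusted p = 0.00505). Both were called in all 4 comparisons, and *Scn9a*, the Nav1.7 pore, was called between the stages alone (96.8 to 174 CPM at P12 and 52.5 to 90.3 CPM in the adult, log2 fold change -0.91 ± 0.23 (SE), adjusted p = 0.0256). The pores of myelinated axons were not called (adjusted p = 0.245 for *Scn1a* and 0.0639 for *Scn8a*). *Scn1a* stood at 225 to 396 CPM at P12 and 241 to 301 CPM in the adult, and *Scn8a* at 155 to 235 CPM at P12 and 245 to 351 CPM in the adult. Among 10 tested genes of the calcium channel list, *Cacng5*, a gamma subunit by name, was the only one called. It measured 86.4, 115, 73.2 and 72.8 CPM at P12 and 49.7, 55.3, 46.1, 48.7 and 43.8 CPM in the adult (log2 fold change -0.94 ± 0.14 (SE), adjusted p = 0.00198). Whether its product acts in a calcium channel was not tested. Of 10 genes of this list 2 higher and 1 lower were called without P12 replicates 1 and 2, beside 1223 and 1356 of 11075 over all genes. With thinned neurons 1 higher and 0 lower of 6 were called, and *Cacng5* lost the call.

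Potassium channel genes were called in both directions, 6 higher and 3 lower in the adult of 27 tested (median log2 fold change 0.30). *Kcnc1*, the fast delayed rectifier Kv3.1, measured 120.3, 151, 103 and 77.6 CPM at P12 and 230.3, 253, 307, 242 and 254 CPM in the adult (log2 fold change 0.98 ± 0.14 (SE), adjusted p = 0.00207). *Dpp10*, an auxiliary subunit of Kv4 channels, measured 19.5, 23.7, 20.8 and 14.1 CPM at P12 and 62.8, 56.3, 57.7, 55.6 and 58.2 CPM in the adult (log2 fold change 1.51 ± 0.18 (SE), adjusted p = 9.10e-04). Both rose without overlap between the stages and in all 4 comparisons. *Kcnb2*, *Kcnd1*, *Kcnh7* and *Kcns1* were higher in the adult by 0.59, 0.82, 0.87 and 0.57, and *Kcna6* and *Kcnh2* had -1.46 and -0.69, all on the log2 scale. None of these 6 was called in all 4 comparisons. Without P12 replicates 1 and 2, 12 of the 27 were higher and 3 lower in the adult, and without P12 replicates 3 and 4, 2 were higher and 2 lower of 28. Without adult replicates 1 and 2, 2 were higher and 1 lower, and with thinned neurons 5 were higher and 0 lower of 22. *Kcna1* and *Kcna2*, the Kv1 pores of the juxtaparanode, did not pass (log2 fold changes 0.41 ± 0.20 and 0.64 ± 0.25, adjusted p = 0.194 and 0.115), with the 2 P12 sets far apart for *Kcna2* (369, 335, 165 and 141 CPM).

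Of 6 tested genes of the sodium pump 1 rose and 3 fell, and without P12 replicates 3 and 4, 0 higher and 1 lower of 7 were called. *Fxyd7*, a small regulator of the pump in neurons, measured 1232, 1030, 1090 and 1097 CPM at P12 and 219, 212, 325, 369.8 and 491 CPM in the adult (log2 fold change -1.72 ± 0.28 (SE), adjusted p = 0.00365). It was the one pump gene called in all 4 comparisons, and *Atp1b1* fell by 0.76 on the log2 scale with overlapping plates. *Pvalb*, parvalbumin, a calcium buffer and a defining marker of these neurons, measured 2820, 3146, 3421 and 3362 CPM at P12 and 1692, 1795, 2287, 2223 and 2288 CPM in the adult. It fell in all 4 comparisons (log2 fold change -0.73 ± 0.17 (SE), adjusted p = 0.0213). In the fit of 2 groups the call was lost with the numbered clusters as the only adult neurons (log2 fold change -0.62, adjusted p = 0.0505), without adult replicate 1 or 2 or both, and without P12 replicate 3 or 4 or both. Both stages carry the Cre allele at this locus. The calcium pump *Atp2b3* rose from 8.7 ± 1.64 to 25 ± 7.43 CPM (SD, n = 4 and 5 plates, log2 fold change 1.34 ± 0.25 (SE), adjusted p = 0.00753), while the calmodulin gene *Calm2* was not called (adjusted p = 0.317).

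In the release list, 4 of 27 tested genes fell and 1 rose, around a median log2 fold change of 0.01. Without P12 replicates 1 and 2 the counts were 6 lower and 7 higher of 28, beside 1356 and 1223 of 11075 over all genes. Without P12 replicates 3 and 4 they were 2 lower and 0 higher of 27, beside 160 and 146 of 10928. *Syt1*, the calcium sensor of fast release, measured 122, 115, 259 and 218 CPM at P12 and 51.7, 32.9, 48.6, 39.4 and 71 CPM in the adult (log2 fold change -2.03 ± 0.30 (SE), adjusted p = 0.00229). *Vamp2*, the vesicle SNARE, measured 116, 130.1, 108 and 107 CPM at P12 and 70.4, 62.5, 52.1, 55.2 and 89.2 CPM in the adult (log2 fold change -0.95 ± 0.19 (SE), adjusted p = 0.00933). *Rab3c*, a vesicle GTPase, measured 709.6, 778, 572 and 493 CPM at P12 and 458, 426, 396, 359.9 and 273 CPM in the adult (log2 fold change -0.79 ± 0.16 (SE), adjusted p = 0.0092). These 3 were called in all 4 comparisons, and *Syn2* between the stages alone (log2 fold change -0.69 ± 0.16 (SE), adjusted p = 0.0158). *Syt4* went up (log2 fold change 1.36 ± 0.37 (SE), adjusted p = 0.0368) with 1 P12 plate inside the adult range (35 to 109.9 CPM at P12 and 97.8 to 309.7 CPM in the adult). *Snap25* did not pass (log2 fold change 0.24 ± 0.23 (SE), adjusted p = 0.514). Of the 17 genes of GABA-A receptors and chloride transport, 8 were tested and 0 were called. In the adult 2 of 9 were higher without P12 replicates 1 and 2, and with adult replicates 1 and 2 as the only adult plates 1 of 7. *Gabra2* stood at 21.5 to 45.8 CPM at P12 and 27.5 to 55.7 CPM in the adult (adjusted p = 0.954).

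Of 18 tested transcription factors of sensory neurons 2 rose and 0 fell, beside 5.53% higher and 5.8% lower (11.3% called) over all tested genes. The rises numbered 0 without adult replicates 1 and 2 and 5 with those as the only adult plates. They numbered 6 without P12 replicates 1 and 2, 1 without P12 replicates 3 and 4 (with 1 fall), and 1 with thinned neurons. *Runx1*, the Runx family member of nociceptors, measured 1.9, 4.1, 7.28 and 7.57 CPM at P12 and 24.6, 27.3, 26.4, 12.6 and 20.9 CPM in the adult (log2 fold change 1.68 ± 0.36 (SE), adjusted p = 0.0139). *Nfix*, a nuclear factor I gene, measured 0, 3.4, 1.01 and 0.693 CPM at P12 and 7.24, 9.38, 10.5, 4.36 and 7.06 CPM in the adult (log2 fold change 2.50 ± 0.52 (SE), adjusted p = 0.0118). *Etv1*, *Isl1*, *Runx3* and *Shox2* were not called (adjusted p = 0.177, 0.732, 0.43 and 0.0777), and 9 of 19 factors differed between the adult plate sets and 8 between the P12 sets. *Gfra2*, the co-receptor of neurturin, fell, with 39 UMIs at P12 and 5 in the adult, a ratio of 15.3 (6.03 to 49.8) (adjusted p = 0.00175). *Ret*, the receptor kinase that it pairs with, rose (6.0 to 28 CPM at P12 and 27.1 to 56.6 CPM in the adult, log2 fold change 1.25 ± 0.36 (SE), adjusted p = 0.0451). *Ntrk3* did not pass (269 to 671 CPM at P12 and 373 to 464 CPM in the adult, log2 fold change -0.14 ± 0.19 (SE), adjusted p = 0.656). Of 8 tested mechanotransduction genes *Whrn* rose (log2 fold change 0.66 ± 0.17 (SE), adjusted p = 0.03) and *Piezo2*, the stretch-gated channel of proprioceptors, fell (208 to 254 CPM at P12 and 133 to 226 CPM in the adult, log2 fold change -0.53 ± 0.14 (SE), adjusted p = 0.0328). Neither was called in all 4 comparisons, and *Piezo2* lost the call in 13 of 20 alternatives and *Whrn* in 10 of 20. Of the 8 mechanotransduction genes 3 higher and 0 lower were called without P12 replicates 1 and 2, without P12 replicates 3 and 4, 1 higher and 0 lower, and with thinned neurons 0 higher and 0 lower of 5.

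**Figure D3:**
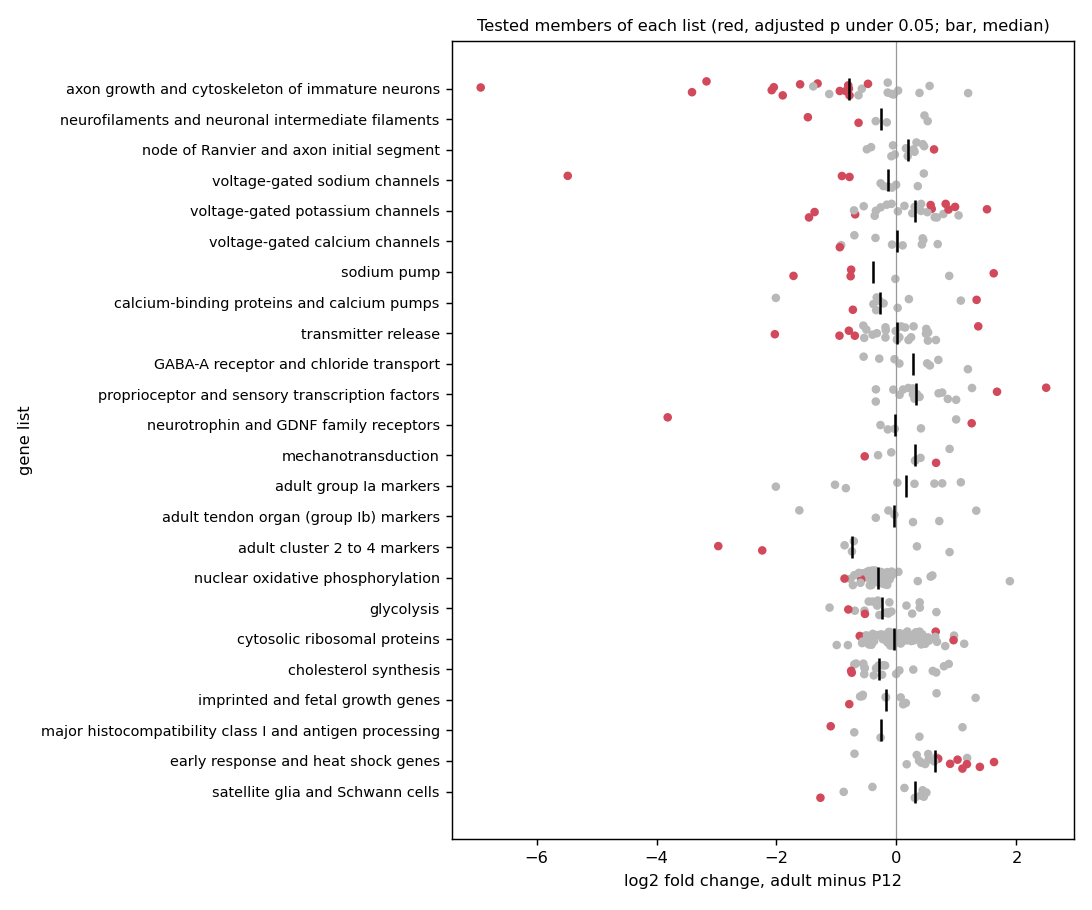
Log2 fold change (adult minus P12) of every tested member of 24 gene lists, red where the gene was called, with a bar at each list's median. The growth list lies mostly left of 0 and the early response list mostly right of it, and most of the other medians lie close to 0.

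The 24 genes that mark group Ia, group Ib and the other adult clusters were taken neuron by neuron. Their shares of neurons with a UMI, thinned to 7000 UMIs, were compared by two-sided exact permutation over plates. A single marker at the smallest p that the plates allow has an adjusted p of 0.381 over the 24 markers, so that the adjusted test could hardly pass and says nothing of whether the shares differed. Unadjusted p was under 0.05 for 2 of the 24, for 4 without thinning, for 0 at 2 or more UMIs, and for 1 to 5 on leaving out 1 plate (5 without P12 replicate 2, and 1 without any of adult replicates 2 to 5). *Calb1*, calbindin, had a UMI in 10.4% ± 4.21 of the P12 neurons and 21.3% ± 2.76 of the adult neurons (SD over 4 and 5 plates) (unadjusted exact permutation p = 0.0159), and its plate sums did not pass (log2 fold change 1.07 ± 0.42 (SE), adjusted p = 0.116). *Cdh13*, an atypical cadherin, went the other way, with 22.4% ± 8.25 of the P12 neurons and 8.23% ± 6.53 of the adult neurons (SD over 4 and 5 plates) (unadjusted exact permutation p = 0.0317). Without thinning the shares were 38.5% and 53.2% for *Calb1* and 57.2% and 20.2% for *Cdh13*. In the plate sums *Cdh13* fell in all 4 comparisons, with 1 P12 plate inside the adult range (68.2, 24.4, 51.8 and 34.1 CPM at P12 and 30.3, 19.6, 5.49, 8.14 and 3.44 CPM in the adult, log2 fold change -2.24 ± 0.43 (SE), adjusted p = 0.00793).

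The calls between plate sets come from the fit of 4 sets, and those between the stages from the fit of 2 groups, whose spread includes the plate sets, so that the counts of both are given side by side only. Of 8 group Ia markers 0 were called between the stages and 6 between the P12 sets, and of the tendon organ markers 0 of 7 and 4 of 8, all higher on P12 replicates 1 and 2. The summed level of glial genes other than *S100b* was also higher on those plates. The comparison of the stages turned with the P12 set. Without P12 replicates 1 and 2, 2 group Ia markers (median log2 fold change 1.02) and 4 tendon organ markers (median 1.49) were higher in the adult and none lower. Without P12 replicates 3 and 4, 2 group Ia markers (median -0.72) and 1 tendon organ marker (median -1.02) were lower and none higher. Of 7 markers of the other adult clusters 2 were called between the stages, both lower in the adult, and 1 between the P12 sets, and without P12 replicates 3 and 4, 0 were called between the stages. *Calb2*, calretinin, the group Ia marker of highest level, measured 493, 391, 66.3 and 10.7 CPM at P12 and 43.1, 37.9, 45.3, 50.9 and 66.8 CPM in the adult. Replicates 1 and 2 were far above every other plate, and the comparison of the stages did not pass (log2 fold change -2.01 ± 0.63 (SE), adjusted p = 0.0599). *Chad*, an extracellular matrix protein, measured 41.6, 33.1, 14.2 and 4.97 CPM at P12 and 0, 5.53, 9.39, 6.12 and 4.58 CPM in the adult (adjusted p = 0.128). *Pou4f3*, a POU factor of group Ib neurons, measured 25.8, 40.2, 3.67 and 3.8 CPM at P12 and 12.1, 15.1, 12.2, 18.3 and 9.54 CPM in the adult (adjusted p = 0.721). *Cartpt*, the neuropeptide precursor, was called lower in the adult (log2 fold change -2.97 ± 0.88 (SE), adjusted p = 0.0493), but only P12 replicates 3 and 4 were above the adult plates (1.93, 6.27, 176 and 40.9 CPM against 23, 11.2, 14.6, 12.9 and 6.79 CPM). *Tac1* ran at 35.1 to 192 CPM at P12 and 7.41 to 180.2 CPM in the adult (adjusted p = 0.5). *Nxph1* ran at 38.8 to 54.6 CPM at P12 and 30.4 to 50.6 CPM in the adult (adjusted p = 0.1), and neither passed.

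Of 18 tested early response and heat shock genes 7 rose and 0 fell, with a median log2 fold change of 0.65. Summed over 22 genes, the list reached 1865 to 2960 CPM at P12 and 4034 to 5287 CPM in the adult, with no overlap. *Hspa8*, a constitutive chaperone of the HSP70 family, measured 1237, 1412, 1142 and 984 CPM at P12 and 3105, 3121, 2857, 2819 and 2031 CPM in the adult (log2 fold change 1.17 ± 0.16 (SE), adjusted p = 0.00166). *Hsph1*, an HSP110 exchange factor for it, measured 89.8, 100.3, 66.3 and 44.3 CPM at P12 and 176, 186, 172, 142 and 139.7 CPM in the adult (log2 fold change 1.10 ± 0.20 (SE), adjusted p = 0.00565). *Hsp90aa1*, the inducible HSP90, measured 1086, 1130, 562 and 552 CPM at P12 and 1462, 1512, 1339, 1283 and 1238 CPM in the adult (log2 fold change 0.70 ± 0.19 (SE), adjusted p = 0.0388). *Jun* measured 65.5, 54.4, 54.1 and 58.5 CPM at P12 and 87.9, 103, 97.5, 94.3 and 122 CPM in the adult (log2 fold change 0.89 ± 0.17 (SE), adjusted p = 0.00721). *Atf3*, a factor induced by stress and axon injury, measured 22.4, 5.73, 16.4 and 17 CPM at P12 and 44.9, 49.1, 45.6, 29.9 and 43.8 CPM in the adult (log2 fold change 1.39 ± 0.28 (SE), adjusted p = 0.0101). These 5 rose in all 4 comparisons. *Jund* (log2 fold change 1.02 ± 0.23 (SE), adjusted p = 0.0176) and the phosphatase *Dusp1* (log2 fold change 1.63 ± 0.31 (SE), adjusted p = 0.0081) were called between the stages alone. The immediate early factors *Fos* and *Egr1* were tested and not called. The adult ganglia were digested for 16 min and the P12 ganglia for 12 min, and the part of digestion in these values was not tested. Without P12 replicates 3 and 4 the rises numbered 4, and in the other reduced comparisons between 5 and 7. With each neuron thinned to 7000 UMIs 7 members were tested and 2 rose, *Hspa8* and *Hsph1*, while *Atf3*, *Jun*, *Jund* and *Hsp90aa1* lost the call and *Dusp1* was not tested.

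**Figure D4:**
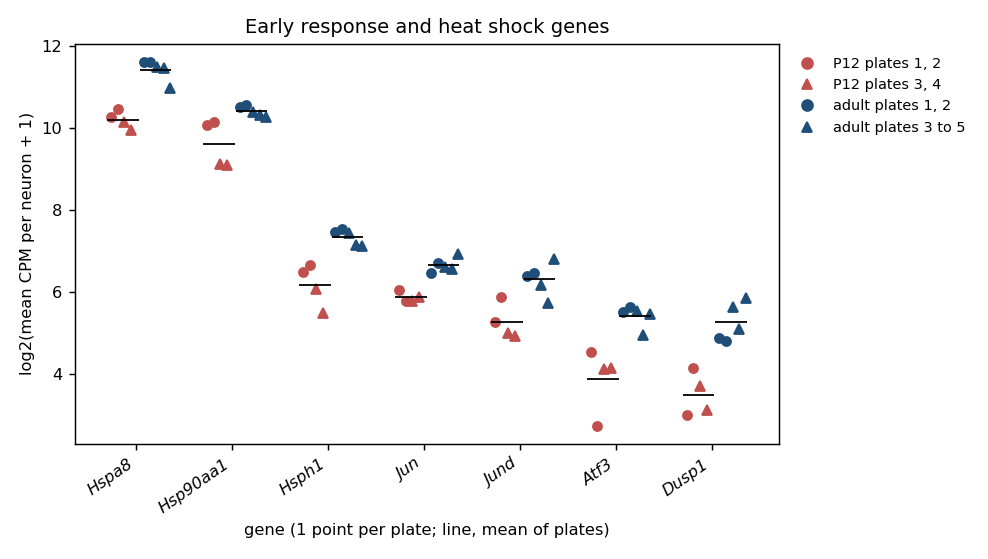
Levels of the 7 early response and heat shock genes that rose, as log2 of the plate's mean CPM plus 1, 1 point per plate with a line at the mean of these log values. The adult plates lie above the P12 plates in 6 of the 7, and *Jund* overlaps by 1 plate.

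For 18 of the 22 genes the RefSeq promoter tables (GRCm38.p6) held a window of 250 bases before to 50 bases after a start. The windows of 3 called genes with a match are shown as examples of the elements that chaperone and early response genes are known for. The heat shock element was searched as GAANNTTC or TTCNNGAA, each its own reverse complement, and 15.1% of 32851 windows held at least 1 match. The window of *Hsph1* held 3, and 0.256% of windows held 3 or more. The ATF and CRE element was searched as TGACNTCA and its reverse complement TGANGTCA, which 8.83% of windows held, among them those of *Jun* and *Dusp1*. Over the 18 genes, 6 had a heat shock match and 3 an ATF or CRE match. The window of *Jun* also held 1 heat shock match. Capitals mark the heat shock matches in *Hsph1* and the ATF or CRE match in *Jun* and *Dusp1*.
Hsph1, chr5:149636287-149636586, minus strand: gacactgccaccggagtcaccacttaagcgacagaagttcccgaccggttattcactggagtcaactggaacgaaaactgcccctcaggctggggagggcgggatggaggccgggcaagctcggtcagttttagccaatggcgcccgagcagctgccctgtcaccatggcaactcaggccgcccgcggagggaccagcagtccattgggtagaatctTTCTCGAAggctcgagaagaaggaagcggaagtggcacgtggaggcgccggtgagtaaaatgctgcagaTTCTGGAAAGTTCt
Jun, chr4:95052173-95052472, minus strand: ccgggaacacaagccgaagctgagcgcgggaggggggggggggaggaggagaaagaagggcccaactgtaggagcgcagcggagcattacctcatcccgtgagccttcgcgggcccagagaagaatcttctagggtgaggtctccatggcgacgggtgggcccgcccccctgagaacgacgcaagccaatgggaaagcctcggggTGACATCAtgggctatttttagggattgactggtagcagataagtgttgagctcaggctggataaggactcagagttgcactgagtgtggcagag
Dusp1, chr17:26508423-26508722, minus strand: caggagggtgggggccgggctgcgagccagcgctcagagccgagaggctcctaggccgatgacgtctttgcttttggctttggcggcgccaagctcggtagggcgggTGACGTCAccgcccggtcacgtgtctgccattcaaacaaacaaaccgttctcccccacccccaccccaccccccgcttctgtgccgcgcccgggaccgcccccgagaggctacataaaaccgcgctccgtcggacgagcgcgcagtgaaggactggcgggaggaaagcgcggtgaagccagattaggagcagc

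Genes of oxidative phosphorylation were called in few cases between the stages and in many between plate sets, in the 2 fits of different form. Of 68 tested genes of oxidative phosphorylation 3 fell between the stages and 0 rose, while 63 of the 68 had a negative log2 fold change (median -0.31). Between the adult sets 45 of the 68 were called and between the P12 sets 50. In the adult 42 of the 45 were lower on replicates 1 and 2, and at P12 47 of the 50 were lower on replicates 1 and 2. Summed over 77 genes the level was 94676, 102357, 122307 and 130075 CPM on the P12 plates and 81025, 81425, 101496, 103882 and 106711 CPM on the adult plates, so that the higher adult set overlapped the lower P12 set. *Sdhd*, a subunit of complex II, was the one member called in all 4 comparisons, at 403, 308, 428 and 392 CPM at P12 and 182, 162, 215, 257 and 262 CPM in the adult (log2 fold change -0.87 ± 0.18 (SE), adjusted p = 0.0119). *Atp5c1* and *Ndufs4* were called between the stages alone (-0.54 and -0.59). Without P12 replicates 1 and 2, 31 members were lower in the adult and 2 higher, and without P12 replicates 3 and 4, 0 were lower and 1 higher.

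In the list of glycolysis and pyruvate use 2 of 20 tested genes fell, *Pdha1* and *Pdhb*, subunits of pyruvate dehydrogenase, which acts after glycolysis, and no glycolytic enzyme was called (log2 fold change -0.53 ± 0.15 (SE), adjusted p = 0.0473, and log2 fold change -0.80 ± 0.19 (SE), adjusted p = 0.0211). *Pdha1* lost the call in 16 of 20 alternatives, and with thinned neurons 0 of 17 were called. In this list 4 higher and 3 lower were called without P12 replicates 1 and 2. In cholesterol synthesis 2 of 21 fell, *Mvk* and *Msmo1* (-0.76 and -0.75), while *Hmgcs1*, an early enzyme of the pathway, was high on adult replicates 1 and 2 and not called between the stages. Of the 21, 1 higher and 4 lower were called without P12 replicates 1 and 2, and without P12 replicates 3 and 4, 0 higher and 0 lower. *Hmgcs1* measured 267, 374, 269.9 and 243 CPM at P12 and 847, 836, 167, 151 and 182 CPM in the adult. Without adult replicates 1 and 2 its log2 fold change was -0.91 and passed. Of the imprinted genes *Ndn* fell in all 4 comparisons (174 to 294 CPM at P12 and 98.2 to 175 CPM in the adult, log2 fold change -0.79 ± 0.21 (SE), adjusted p = 0.0367), 1 of 11 tested. *B2m*, the light chain of class I histocompatibility molecules, fell (95.8 to 184 CPM at P12 and 44 to 74.8 CPM in the adult, log2 fold change -1.10 ± 0.27 (SE), adjusted p = 0.0256), 1 of 5 tested in its list. The call of *B2m* was lost without adult replicate 1 or 2 or both, and without P12 replicate 3 or 4 or both. In its list 1 higher and 0 lower of 5 were called without adult replicates 1 and 2, and 1 higher and 1 lower of 5 with thinned neurons. The Y-linked *Eif2s3y* and *Ddx3y* were at or near 0 on adult replicates 1 to 4 and detected on adult replicate 5 and every P12 plate (0, 0, 0, 0 and 11.5 CPM of *Ddx3y* in the adult and 4.33, 12, 22 and 11.2 CPM at P12). The X-linked *Xist*, made in females, was not called (log2 fold change -0.19, adjusted p = 0.82) and was detected on every plate of both stages. The part of the animals' sex in these values was not tested.

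Ribosomal protein genes were called between the stages in 3 of 77 cases, *Rpl13* and *Rpsa* higher (0.65 and 0.95) and *Rpl32* lower (-0.61), but 45 of the 77 differed between the P12 sets, 41 of them higher on replicates 1 and 2. Without P12 replicates 1 and 2, 31 were higher in the adult and 3 lower, and without P12 replicates 3 and 4, 0 were higher and 4 lower. *Rpl38* measured 917, 1288, 246 and 307 CPM at P12 and 929, 887, 556, 675 and 579 CPM in the adult. *Eef1a1*, the elongation factor and one of the most abundant messages of most cells, was named after its values were seen and measured 271, 264, 24.7 and 32 CPM on the P12 plates and 166, 155, 75.5, 76.3 and 97.1 CPM on the adult plates, with P12 replicates 3 and 4 below all other plates. On those 2 plates processed pseudogenes, as annotated in GENCODE M21, took 3.55% and 4.22% of UMIs, against 1.99% and 2.59% on P12 replicates 1 and 2 and 2.12% to 2.79% on the adult plates. Of 1019 tested genes called higher on P12 replicates 3 and 4 than on 1 and 2, 23.1% were processed pseudogenes, against 6.22% of all tested genes. Of other genes looked at with *Eef1a1*, *Pgk1* was also lower on P12 replicates 3 and 4 (137, 107, 26 and 21.5 CPM on the P12 plates). *Actb* was not (1300, 1624, 1444 and 1486 CPM). Whether reads moved between near-identical copies was not tested, and *Eef1a1* and the ribosomal protein genes carry this uncertainty between the P12 sets. Of the genes called between the stages, 4.63% of those higher and 7.99% of those lower in the adult were processed pseudogenes.

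**Figure D5:**
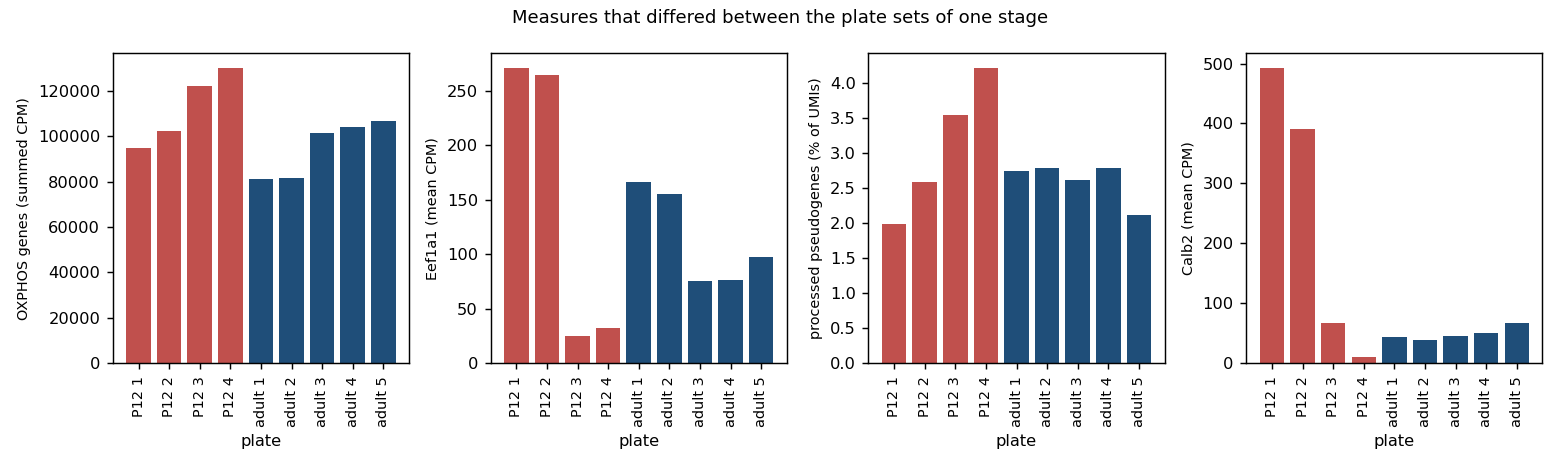
Summed CPM of the nuclear oxidative phosphorylation genes, mean CPM of *Eef1a1*, percent of UMIs in processed pseudogenes and mean CPM of *Calb2*, 1 bar per plate, red for P12 and blue for the adult. P12 replicates 1 and 2 differ from 3 and 4 in all 4 measures, and adult replicates 1 and 2 from 3 to 5 in the first 2.

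The 15 largest rises, chosen by the same rule as the falls with predicted genes skipped, included *Gnat1*, *Nanog*, *Marf1*, *Cflar*, *Dpep2*, *Setd7*, *Lrrc17*, *Olfr373*, *Pcdh1*, *Nme7*, *Zfp873*, *Gipc2*, *Arl5c* and *Dcaf17*. All but *Gnat1* were called in all 4 comparisons. *Setd7* (chr3:51515319-51560879), a lysine methyltransferase, measured 7.65, 6.38, 6.36 and 4.23 CPM at P12 and 54, 65.5, 40.4, 51.7 and 37.8 CPM in the adult (log2 fold change 3.00 ± 0.24 (SE), adjusted p = 4.47e-05). *Arl5c* (chr11:97989578-97996181), a small GTPase of the ARF family, had the highest level, 243, 400, 209 and 118 CPM at P12 and 831, 1953, 1278, 1028 and 754 CPM in the adult (log2 fold change 2.28 ± 0.35 (SE), adjusted p = 0.00253). *Cflar* (chr1:58711508-58758884), an inhibitor of caspase-dependent death, stood at 0 to 5.07 CPM at P12 and 7.45 to 73.9 CPM in the adult (log2 fold change 3.46 ± 0.63 (SE), adjusted p = 0.00619). *Gipc2* stood at 7.45 to 15.7 CPM at P12 and 29.3 to 75 CPM in the adult (log2 fold change 2.45 ± 0.27 (SE), adjusted p = 4.75e-04).

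Several of these genes are not known for a role in sensory neurons. *Nanog* (chr6:122707489-122714633), a factor of pluripotent cells, measured 2.69, 7.65, 0.505 and 0.531 CPM at P12 and 23.4, 41.9, 34.8, 54.5 and 29.9 CPM in the adult, and its 11 UMIs at P12 against 409 in the adult gave a ratio of 18.9 (10.5 to 38.2) (log2 fold change 4.00 ± 0.48 (SE), adjusted p = 7.74e-04). *Gnat1* (chr9:107674474-107679712), the transducin of rods, measured 3.34, 5.22, 0 and 1.22 CPM at P12 and 14.6, 16.2, 19.3, 44.9 and 55.1 CPM in the adult (log2 fold change 4.10 ± 0.75 (SE), adjusted p = 0.00654). The odorant receptor *Olfr373* (chr8:72083177-72103084) stood at 1.5 to 6.62 CPM at P12 and 12.4 to 38.1 CPM in the adult (log2 fold change 2.78 ± 0.41 (SE), adjusted p = 0.00212). A count per gene does not show where in the gene the reads fell. *Marf1* differed between the adult sets by 2.73 on the log2 scale, the most of the 15, at 6.95, 24, 11.4 and 7.5 CPM at P12 and 326, 333, 35.5, 43.2 and 53.6 CPM in the adult (log2 fold change 3.55 ± 0.77 (SE), adjusted p = 0.0143). The last 1000 bases of *Nme7* overlap *Atp1b1* on the other strand, those of *Lrrc17* overlap *Fbxl13* and those of *Dpep2* the lncRNA *Gm45752*. *Nme7* stood at 11.1 to 66.9 CPM at P12 and 82.8 to 295 CPM in the adult, and *Lrrc17* at 3.41 to 31 CPM at P12 and 40.6 to 204 CPM in the adult. *Dpep2* stood at 0 to 4.1 CPM at P12 and 11.8 to 34.7 CPM in the adult, and the zinc finger gene *Zfp873* at 17.1 to 40.1 CPM at P12 and 57.5 to 269 CPM in the adult. *Pcdh1* (log2 fold change 2.71 ± 0.51) and *Dcaf17* (2.26 ± 0.27) were also among the 15. Names of predicted genes or clones made up 12.6% of the tested genes, 18.2% of those higher in the adult and 13.8% of those lower.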

How the data were processed

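Single tdTomato neurons were sorted into 96 wells per plate, and Plate-seq libraries were aligned by the authors with STAR to mm10 (GRCm38) with NCBI annotation, as the study's methods and the submitters' processing notes give it. The version of STAR and the use of strand in counting are not given in the sources used here. The authors collapsed reads by UMI and deposited raw UMI counts per gene and well, 1 table per plate, with an annotation of the wells they kept. Sort gates that removed doublets, as the methods state, were the treatment of doublets, and no doublet caller was run here. A joint table of the authors was not used.

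Sums per plate over the kept neurons were tested in R 4.3.3 with the quasi-likelihood F-test of edgeR 4.0.16. Libraries were scaled by TMM, low genes removed by filterByExpr, and p-values adjusted by the Benjamini-Hochberg method. Alternatives used DESeq2 1.42.0, limma 3.58.1, other scaling and filters, thinning to 7000 UMIs and fewer plates. Depth after summing was 680212 to 2387288 UMIs per plate. Shares and depths per neuron were compared by exact permutation over plates with scipy 1.17.1. Scripts were tested on simulated data. Plates of one stage were treated as replicates.

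The 15 largest rises and falls were taken among genes called between the stages, called with the same sign against both adult plate sets, with no overlap of plates and at least 20 CPM in the higher stage, predicted genes and pseudogenes skipped. The 4 members of each list with the highest level, called members and the markers the study names could also be named. The members, lists and plate sets were chosen with earlier results of these data known, and the P12 plate sets and the fit of 4 sets were added after the data were seen. Gene positions and overlaps came from GENCODE M21 (GRCm38). Promoter windows of chromosome 18 were left out. Some genes of these lists are not reported here.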

Additional observations from a re-analysis of the deposited data

Results flagged for a closer look

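Of 260 groups of 4 or 5 plates examined over the named genes, 14 had 1 plate far from the others of its stage, and chance alone gives about 1 in 20. In the adult, replicate 5 stood apart in 6 genes. It was higher for *Apoe*, a lipid carrier abundant in glia (651 CPM against 244 to 347 on the other adult plates), *Tubb2a* (404 CPM against 312 to 334), *Ddx3y* (11.5 CPM against 0) and *Eif2s3y* (7.24 CPM against 0 to 0.223). It was lower for *Hspa8* (2031 CPM against 2819 to 3121) and *Snap25* (2020 CPM against 3975 to 4639). This plate held 20 neurons, the fewest of the adult plates. Adult replicate 4 was low for *Atf3* (29.9 CPM against 43.8 to 49.1) and *Ly6e* (3.24 CPM against 6.88 to 8.07).

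At P12, replicate 1, with 12 neurons, was low for *Cntnap2* (522 CPM against 611 to 615) and high for *Dpysl3* (701 CPM against 647 to 653), *Ndn* (294.5 CPM against 174 to 180) and *Zfp873* (40.1 CPM against 17.1 to 19.9). P12 replicate 2 was high for *Calb1* (46.4 CPM against 13.3 to 18.2), and P12 replicate 4 low for *Tubb5* (1192 CPM against 1285 to 1304).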

How the results depend on the processing

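The 1149 genes called between the stages became 1726 with no filter on low counts, 434 with each neuron thinned to 7000 UMIs, 728 without adult replicates 1 and 2, 497 by limma on mean log values, 2579 without P12 replicates 1 and 2, and 306 without P12 replicates 3 and 4. Leaving out 1 plate gave 498 to 1334. Leaving out adult replicate 1 or 2 or P12 replicate 3 or 4 lowered it by over 1.5 times, to 736, 761, 498 and 593. With thinned neurons 5647 genes were tested in the fits of plate sets, and 304 were called against both adult sets (635 without thinning), 55 in all 4 comparisons (378) and 517 between the P12 sets (1968). Of the 434 genes called between the stages with thinning, 318 were among the 1149. Leaving out 1 plate gave 128 to 960, 170 to 451 and 963 to 2319 for these, and 185 to 546 for the 434 between the adult sets in the 3-set fit. The 635 come from the fit of 3 sets, and the fit of 4 sets with the stricter rule gave 378. Of 128 named genes tested, 92 were called, 91 of these kept their direction under every alternative and 31 also their call. Of 2509 pairs of gene and alternative, 371 lost the call, 53 gained it and 6 turned direction with a call on either side. Turns of direction with no call on either side were not counted among the 6. *Cartpt* had a log2 fold change of 1.43 without P12 replicates 3 and 4, and *Hmgcs1* -0.91 without adult replicates 1 and 2. Without P12 replicates 1 and 2, *Npy1r* had 1.71, *Pcdh17* 1.82, *Pou4f3* 1.49 and *Rpl41* 0.73. The causes were not tested. No analysis was paired, since the P12 and adult neurons came from different animals.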
